A study of Homo sapiens with 6 samples.

Results

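Epithelial and mesenchymal state genes were followed in transduced clones of H9, a human embryonic stem cell line. The list named 10 genes: the epithelial adhesion genes CDH1 and EPCAM, the mesenchymal genes CDH2, VIM and TAGLN, and the transcription factor genes SNAI1, SNAI2, ZEB1, ZEB2 and TWIST1. A named row of the deposited table was found for 8 of them, out of 14884 named genes in all, and for a gene with several rows the brightest by its mean signal was used. Genes were listed by function, and rows were chosen by this mean signal, which holds no difference between groups. CDH1 and CDH2 were not analysed here. The list itself was drawn up with earlier results of these data known, so the counts below describe these arrays and are no independent evidence.

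Each of the 3 groups had 2 samples, with 1 expression array per sample. The gamma_ON clones carried a lentiviral vector with the EF1α promoter, H2A.X with the substitution S139E, an IRES and eGFP. The gamma_OFF clones carried the same vector type with H2A.X bearing T136A and S139A, and the CTRL clones carried the vector with eGFP and no H2A.X insert. Cells of all groups were sorted on GFP and TRA 1-60 together, seeded singly on mouse embryonic fibroblast feeders, and expanded from single colonies in feeder-conditioned medium with 8 ng/ml bFGF. Unsubstituted H2A.X was given to no group, so against CTRL the substitutions and the extra H2A.X cannot be told apart. Gamma_ON and gamma_OFF both carry an H2A.X insert, and whether its level differed between them was not tested. Whether both samples of a group come from different clones or cultures is not given in the labels, and the p-values cover only the spread of these samples, possibly a technical one.

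In an epithelial-mesenchymal transition, cells lose the junctions that hold an epithelial sheet together and gain filaments, matrix and contractile proteins of migrating cells. SNAI, ZEB and TWIST factors bind E-box motifs and repress adhesion genes such as CDH1, while microRNAs of the miR-200 family and miR-205 target ZEB1 and ZEB2 messages. Human pluripotent stem cells grow as epithelial colonies, and the transition takes place when mesoderm forms from the epiblast.

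The microRNAs that target ZEB1 and ZEB2 are shown because their precursor rows were measured beside their targets. The mature sequences are from RefSeq (GRCh38.p14), written 5′ to 3′ with the seed, bases 2 to 8, in capitals. The first 3 share the seed AAUACUG, the next 2 share AACACUG, and miR-205 has CCUUCAU.
hsa-miR-200b-3p: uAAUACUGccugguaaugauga
hsa-miR-200c-3p: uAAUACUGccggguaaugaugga
hsa-miR-429: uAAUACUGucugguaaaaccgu
hsa-miR-200a-3p: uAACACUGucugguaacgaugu
hsa-miR-141-3p: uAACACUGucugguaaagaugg
hsa-miR-205-5p: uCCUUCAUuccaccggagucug

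The promoters of VIM and ZEB2 are shown because both genes fell together in gamma_OFF and both have 1 entry in the RefSeq promoter table (GRCh38.p14). Each window holds the 250 bases before the gene's start, in the direction of the gene, with the E-box CANNTG in capitals. A match of CANNTG on 1 strand is also a match on the other, and CAGGTG is a special case of it. Of 35116 promoter windows of this length, 61.8% hold CANNTG and 17.5% hold CAGGTG on either strand. The window of VIM lies at chr10:17227991-17228240 on the plus strand and holds 0 matches. The window of ZEB2 lies at chr2:144520120-144520369 on the minus strand. It holds 1 match, CACATG, whose first base is 180 bases before the start, and 0 matches of CAGGTG. SNAI2, SNAI1, TAGLN, TWIST1 and EPCAM had no entry.
VIM: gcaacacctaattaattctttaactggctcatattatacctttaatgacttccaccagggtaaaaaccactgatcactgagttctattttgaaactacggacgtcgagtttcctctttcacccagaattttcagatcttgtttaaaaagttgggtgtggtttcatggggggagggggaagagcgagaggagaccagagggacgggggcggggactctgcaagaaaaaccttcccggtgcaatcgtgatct
ZEB2: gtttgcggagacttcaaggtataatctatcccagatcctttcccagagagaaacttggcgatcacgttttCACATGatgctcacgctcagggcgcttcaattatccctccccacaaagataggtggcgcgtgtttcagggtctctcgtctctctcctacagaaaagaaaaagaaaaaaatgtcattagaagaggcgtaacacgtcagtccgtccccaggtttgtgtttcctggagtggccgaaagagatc

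All values below are log2 expression levels, so a difference of 1 is a 2-fold difference, and levels are compared only within a gene's own row. Over all genes, arrays of a replicate pair correlated at 0.994 in gamma_ON, 0.986 in gamma_OFF and 0.994 in CTRL. gamma_OFF replicate 2 stood apart, with correlations of 0.969 to 0.974 with the arrays of the other groups, while gamma_OFF replicate 1 correlated at 0.982 to 0.987 with them. The signal range of both gamma_OFF arrays was narrower, with an SD over genes of 1.64 and 1.70 against 1.76 to 1.81 on the other arrays. Values with all arrays rescaled to 1 signal range are given beside calls that they end among the genes described one by one. Summed signal of the 7 measured of 8 pluripotent cell markers was 14.05 and 13.997 in gamma_ON, 14.11 and 14.13 in gamma_OFF, and 13.88 and 13.95 in CTRL. In bulk samples, fewer cells of a type and less RNA per cell cannot be told apart.

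**Figure D1:**
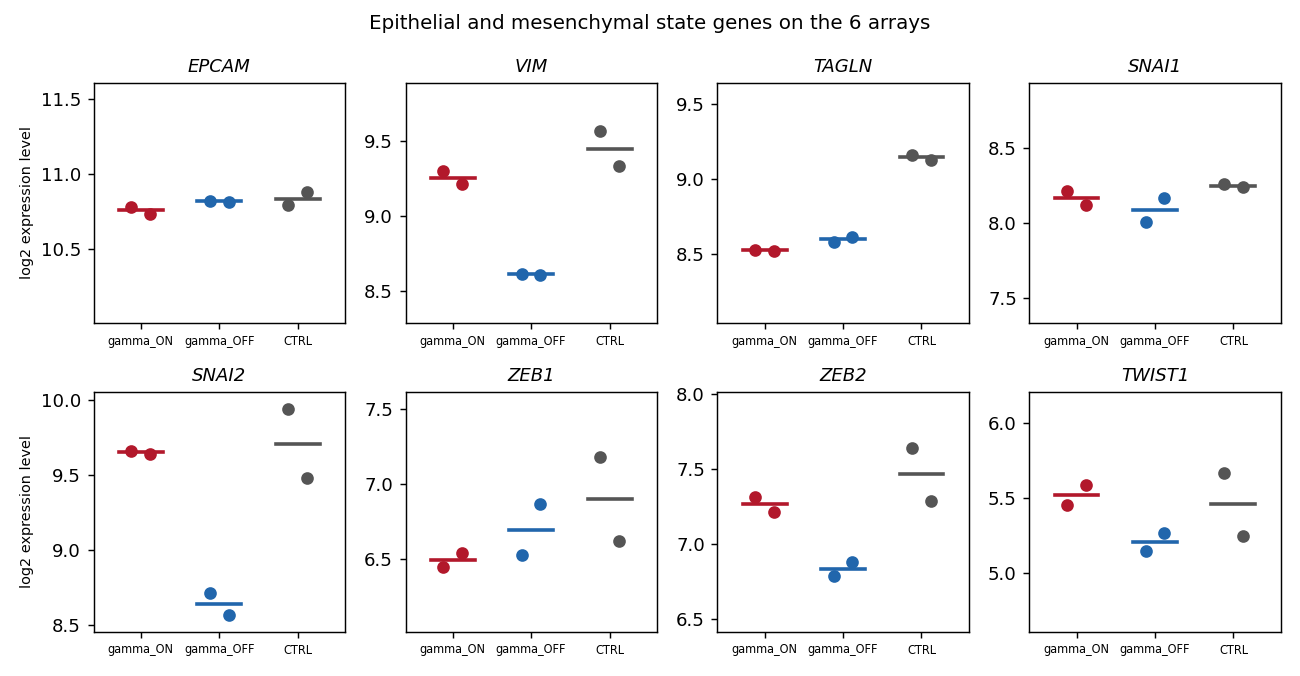
Log2 expression level (vertical axis) of each measured epithelial or mesenchymal state gene on every array, by group (horizontal axis); points are arrays and bars are group means of 2. VIM, SNAI2 and ZEB2 are lowest on the 2 gamma_OFF arrays, and TAGLN is highest on the 2 CTRL arrays. EPCAM differs little between groups on these values, which are not rescaled.

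EPCAM encodes an adhesion molecule of epithelial cells that is abundant on pluripotent stem cells. Its levels were 10.78 and 10.73 in gamma_ON, 10.82 and 10.81 in gamma_OFF, and 10.79 and 10.88 in CTRL. The arrays of the 3 groups lay within a narrow band. The difference was -0.08 in gamma_ON against CTRL (95% interval -0.33 to 0.18) and -0.02 in gamma_OFF against CTRL (-0.27 to 0.24). EPCAM stood at -0.06 in gamma_ON against gamma_OFF (-0.31 to 0.20), and limma called it in none of the 3 comparisons. When each array was rescaled to 1 signal range, EPCAM stood at 0.42 in gamma_OFF against CTRL (adjusted p = 0.0667) and at -0.56 in gamma_ON against gamma_OFF (adjusted p = 0.0406), so its small differences depend on the scaling.

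VIM encodes vimentin, the intermediate filament protein of mesenchymal cells. Its levels were 9.30 and 9.21 in gamma_ON, 8.61 and 8.61 in gamma_OFF, and 9.56 and 9.33 in CTRL. Both gamma_OFF arrays lay below every other array. VIM fell by 0.84 on the log2 scale in gamma_OFF against CTRL (SE 0.12, limma adjusted p = 0.00851), which is 1.79-fold lower. It was 1.56-fold higher in gamma_ON than in gamma_OFF (log2 fold change 0.64, SE 0.12, limma adjusted p = 0.0309). In gamma_ON against CTRL VIM stood at -0.19 (95% interval -0.48 to 0.09, adjusted p = 0.526). The gamma_OFF call was lost without CTRL replicate 1 (-0.72, adjusted p = 0.0743). The difference between gamma_ON and gamma_OFF was lost without gamma_ON replicate 1 (adjusted p = 0.248), gamma_ON replicate 2 (0.103) or gamma_OFF replicate 2 (0.0945), and after quantile normalization (0.43, adjusted p = 0.0919) or rescaling (0.40, adjusted p = 0.0875). The other 2 rows of VIM gave -0.35 and -0.83 in gamma_OFF against CTRL and 0.36 and 0.94 in gamma_ON against gamma_OFF. With all rows tested by limma neither passed, with adjusted p-values of 0.253 and 0.101, and of 0.243 and 0.142. The brightest row had 0.0408 and 0.133 in that test. In gamma_ON against CTRL the other 2 rows gave 0.02 and 0.10, with the opposite sign to the brightest row.

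TAGLN encodes transgelin, an actin-binding protein of smooth muscle and fibroblasts. Its levels were 8.52 and 8.52 in gamma_ON, 8.58 and 8.61 in gamma_OFF, and 9.16 and 9.13 in CTRL. All 4 arrays with an H2A.X vector lay below both CTRL arrays, and the replicates of each group nearly coincided. TAGLN fell by 0.62 in gamma_ON against CTRL (SE 0.11, limma adjusted p = 0.0304), which is 1.54-fold lower. It fell by 0.55 in gamma_OFF against CTRL (SE 0.11, limma adjusted p = 0.0235), which is 1.46-fold lower. Between gamma_ON and gamma_OFF it differed by -0.07 (95% interval -0.32 to 0.18, adjusted p = 0.652). Both comparisons with CTRL share the CTRL arrays. In gamma_ON the call was lost without CTRL replicate 1 (adjusted p = 0.209), CTRL replicate 2 (0.243), gamma_ON replicate 1 (0.235) or gamma_ON replicate 2 (0.187), with log2 fold changes between -0.64 and -0.60. In gamma_OFF it was lost without CTRL replicate 1 (0.141), CTRL replicate 2 (0.143), gamma_ON replicate 1 (0.053), gamma_ON replicate 2 (0.053) or gamma_OFF replicate 2 (0.054), and after quantile normalization (-0.39, adjusted p = 0.0682) or rescaling (-0.34, adjusted p = 0.0854).

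SNAI2 encodes the zinc finger repressor SLUG. Its levels were 9.66 and 9.64 in gamma_ON, 8.71 and 8.57 in gamma_OFF, and 9.94 and 9.48 in CTRL. The gamma_OFF arrays lay far below the other 4, and the gamma_ON arrays lay between both CTRL arrays. SNAI2 fell by 1.07 in gamma_OFF against CTRL (SE 0.16, limma adjusted p = 0.00851), which is 2.10-fold lower and the largest change among the 8 genes in that comparison. It was 2.01-fold higher in gamma_ON than in gamma_OFF (log2 fold change 1.01, SE 0.16, limma adjusted p = 0.0146). In gamma_ON against CTRL it stood at -0.06 (95% interval -0.41 to 0.30, adjusted p = 0.912). Without CTRL replicate 1 SNAI2 stood at -0.84 in gamma_OFF against CTRL (adjusted p = 0.052). The difference between gamma_ON and gamma_OFF was lost without gamma_ON replicate 1 (adjusted p = 0.153), gamma_ON replicate 2 (0.0804) or gamma_OFF replicate 2 (0.0826). It was called after quantile normalization (0.79, adjusted p = 0.0484) and after rescaling (0.75, adjusted p = 0.043).

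SNAI1 encodes SNAIL, the closest relative of SLUG. Its levels were 8.21 and 8.12 in gamma_ON, 8.01 and 8.16 in gamma_OFF, and 8.26 and 8.24 in CTRL. The H2A.X groups overlapped each other and lay just under CTRL. SNAI1 stood at -0.08 in gamma_ON against CTRL (adjusted p = 0.814), at -0.16 in gamma_OFF against CTRL (95% interval -0.43 to 0.10, adjusted p = 0.374) and at 0.08 in gamma_ON against gamma_OFF. That last sign turned after quantile normalization (-0.10) and rescaling (-0.08).

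ZEB2 encodes a zinc finger repressor with a homeodomain. Its levels were 7.31 and 7.22 in gamma_ON, 6.79 and 6.88 in gamma_OFF, and 7.64 and 7.29 in CTRL. As for VIM and SNAI2, both gamma_OFF arrays were the lowest. ZEB2 fell by 0.63 in gamma_OFF against CTRL (SE 0.14, limma adjusted p = 0.0328), which is 1.55-fold lower. It stood at 0.43 in gamma_ON against gamma_OFF (95% interval 0.11 to 0.75, adjusted p = 0.0858) and at -0.20 in gamma_ON against CTRL (-0.52 to 0.12, adjusted p = 0.569). The gamma_OFF call was lost without CTRL replicate 1 (adjusted p = 0.189), CTRL replicate 2 (0.0606), gamma_ON replicate 1 (0.0628), gamma_ON replicate 2 (0.0628) or gamma_OFF replicate 2 (0.0802).

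ZEB1, the sister gene of ZEB2, had levels of 6.45 and 6.54 in gamma_ON, 6.53 and 6.87 in gamma_OFF, and 7.18 and 6.62 in CTRL. Its CTRL replicates lay far apart, and gamma_OFF overlapped both other groups. ZEB1 stood at -0.40 in gamma_ON against CTRL (95% interval -0.83 to 0.03, adjusted p = 0.37), at -0.20 in gamma_OFF against CTRL (-0.63 to 0.23, adjusted p = 0.487) and at -0.20 in gamma_ON against gamma_OFF. TWIST1, a bHLH factor gene of mesoderm and neural crest, had levels of 5.45 and 5.58 in gamma_ON, 5.15 and 5.26 in gamma_OFF, and 5.66 and 5.24 in CTRL. These values lay below the lower quartile of all gene values on every array, which was 5.91 to 6.06, and CTRL spanned almost the whole range of the other groups. TWIST1 stood at 0.07 in gamma_ON against CTRL (adjusted p = 0.897), at -0.25 in gamma_OFF against CTRL (95% interval -0.60 to 0.10, adjusted p = 0.298) and at 0.31 in gamma_ON against gamma_OFF (adjusted p = 0.181).

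**Figure D2:**
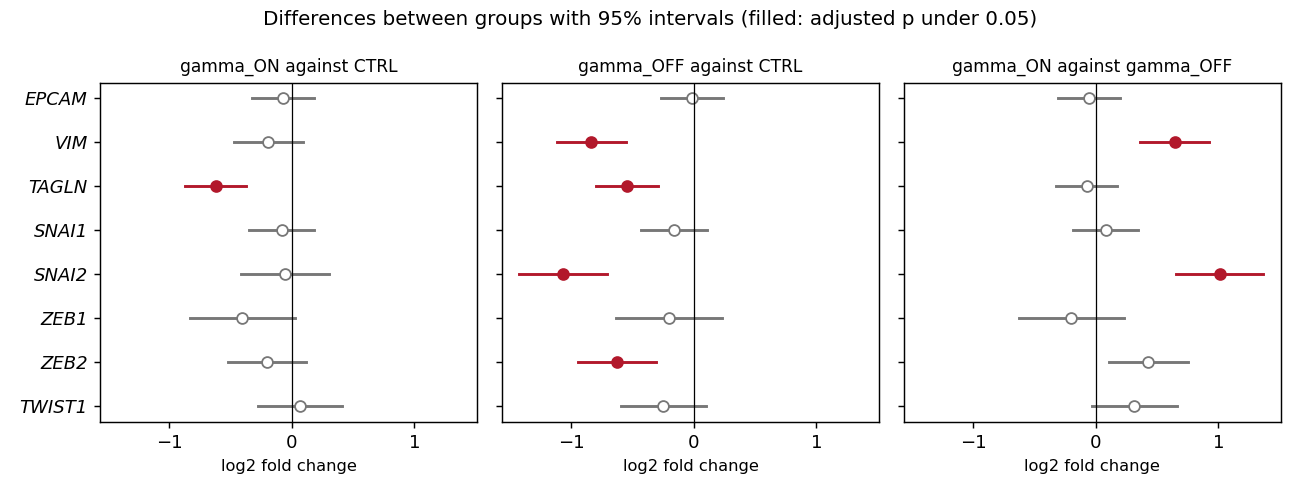
Log2 fold changes (horizontal axis) of the 8 genes in the 3 comparisons, with 95% intervals as lines; filled points have a limma adjusted p under 0.05 over all genes. In gamma_OFF against CTRL 4 genes are filled, all below 0, TAGLN alone is filled in gamma_ON against CTRL, and VIM and SNAI2 are filled in gamma_ON against gamma_OFF.

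Counted together, 4 of the 8 genes fell in gamma_OFF against CTRL (VIM, SNAI2, ZEB2 and TAGLN) and 0 rose, where limma called 8.85% of all genes, 2.77% higher and 6.08% lower. Their median log2 fold change was -0.40, beside 0.02 over all genes. In gamma_ON against CTRL 1 of 8 fell (TAGLN) and 0 rose, where 1.55% of all genes were called, 0.739% higher and 0.806% lower, and the medians were -0.14 and 0.02. Of the 8, VIM and SNAI2 were higher in gamma_ON than in gamma_OFF and 0 were lower. In that comparison 5.99% of all genes were called, 3.98% higher and 2.02% lower, and the medians were 0.20 and 0.02. The brighter 7442 genes, with a mean level above that of the median gene, held 6 of the 8. Fitted alone, 17.3% of these brighter genes were called in gamma_OFF against CTRL, with a median of -0.11. The values were 4.18% and 0.04 in gamma_ON against CTRL, and 20.1% and 0.17 in gamma_ON against gamma_OFF. The 3 comparisons share arrays, so their counts are not independent of each other. The count in gamma_OFF against CTRL was 0 without CTRL replicate 1, and 2 on leaving out CTRL replicate 2, either gamma_ON array or gamma_OFF replicate 2. The count in gamma_ON against CTRL was 0 on leaving out any 1 CTRL or gamma_ON array, and that in gamma_ON against gamma_OFF was 0 on leaving out either gamma_ON array or gamma_OFF replicate 2.

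Groups without overlap were more frequent than calls. In gamma_OFF against CTRL 5 of 8 genes lay wholly lower (VIM, SNAI1, SNAI2, ZEB2 and TAGLN) and 0 wholly higher, while 61.3% of all genes did not overlap, 31.1% higher and 30.2% lower. Gamma_ON lay wholly below CTRL for 5 of 8 (VIM, SNAI1, ZEB1, TAGLN and EPCAM) and wholly above for 0, while 52.4% of all genes did not overlap, 30% higher and 22.3% lower. Gamma_ON lay wholly above gamma_OFF for 4 of 8 (VIM, SNAI2, ZEB2 and TWIST1) and wholly below for TAGLN and EPCAM, while 63.3% of all genes did not overlap, 35.8% higher and 27.6% lower.

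**Figure D3:**
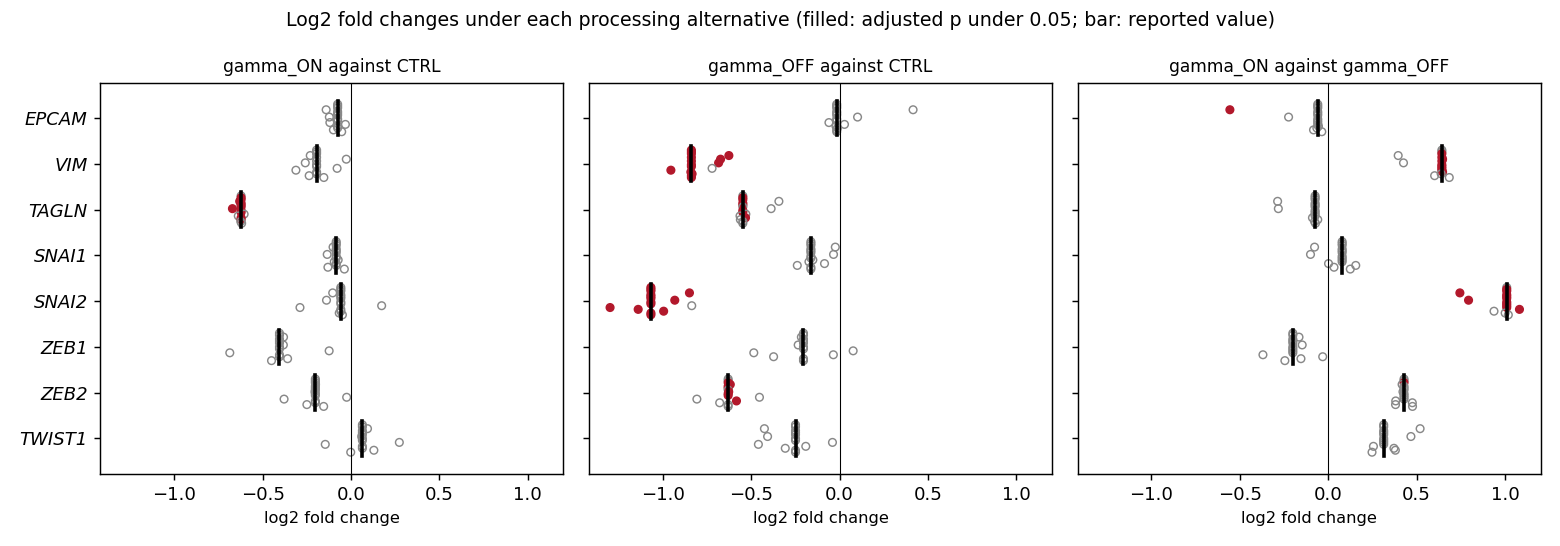
Log2 fold changes (horizontal axis) of the 8 genes under each processing alternative, 1 point per alternative; bars mark the reported values and filled points have a limma adjusted p under 0.05. SNAI2 and VIM keep their sign in gamma_OFF against CTRL and in gamma_ON against gamma_OFF at every point, while EPCAM crosses 0.

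SNAI2 was the 1 gene of the 8 whose arrays spanned over 1 log2 unit. Among all genes, the profile over the 6 arrays most like that of SNAI2, each gene centred on its own mean, was that of WLS, a carrier gene for secreted WNT proteins, with a root mean square difference of 0.0493. WLS had levels of 8.83 and 8.83 in gamma_ON, 7.97 and 7.68 in gamma_OFF, and 9.05 and 8.68 in CTRL. FN1, which encodes fibronectin, came next with 0.0747. Likeness over 6 arrays of 3 groups is a description only.

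The mesenchymal list held 29 genes, of which 14 were measured. In gamma_OFF against CTRL 7 fell (FN1, TNC, FBN1, CCN2, IGFBP7, BGN and AXL), 0 rose and 7 did not pass, with 13 of 14 log2 fold changes negative and a median of -0.52. Of all genes limma called 8.85% there and 6.08% as lower, with a median of 0.015. Among the brighter 7442 genes fitted alone, 17.3% were called, with a median of -0.105. In gamma_ON against gamma_OFF 8 were higher (LUM, TNC, FN1, FBN1, IGFBP7, VCAN, BGN and LOX), 0 lower and 6 did not pass, with a median of 0.62. Of all genes 5.99% were called there and 3.98% as higher, with a median of 0.024. For the brighter genes alone these were 20.1% called in either direction and a median of 0.167. In gamma_ON against CTRL CCN2 fell, 0 rose and 13 did not pass, with a median of -0.13, or 0.05 without CTRL replicate 1. With all 6 arrays 1.55% of all genes were called in that comparison, and the median of all genes was 0.021. Rescaling ended the limma calls of AXL (adjusted p = 0.169), BGN (0.151) and IGFBP7 (0.0534) in gamma_OFF against CTRL. In gamma_ON against gamma_OFF it ended those of VCAN (adjusted p = 0.36), LOX (0.0601), BGN (0.289) and IGFBP7 (0.136).

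FN1 had levels of 12.39 and 12.34 in gamma_ON, 11.50 and 11.38 in gamma_OFF, and 12.68 and 12.40 in CTRL. It fell by 1.11 in gamma_OFF against CTRL (limma adjusted p = 0.0048) and differed by 0.93 in gamma_ON against gamma_OFF (adjusted p = 0.0103). TNC, which encodes the matrix glycoprotein tenascin-C, had levels of 9.21 and 9.05 in gamma_ON, 8.17 and 8.05 in gamma_OFF, and 9.64 and 9.18 in CTRL. For both genes the gamma_OFF arrays lay below all others. TNC fell by 1.30 in gamma_OFF against CTRL (limma adjusted p = 0.00539) and differed by 1.02 in gamma_ON against gamma_OFF (adjusted p = 0.0151). Against CTRL both were called whichever array was left out, although FN1 lost its call after rescaling (-0.58, adjusted p = 0.0531). Against gamma_OFF both were lost without gamma_ON replicate 1, gamma_ON replicate 2 or gamma_OFF replicate 2, with adjusted p-values of 0.0516 to 0.134 for FN1 and 0.074 to 0.173 for TNC. After rescaling FN1 stood at 0.31 there (adjusted p = 0.217).

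LUM, which encodes the collagen-binding proteoglycan lumican, had levels of 9.95 and 10.03 in gamma_ON, 9.09 and 8.69 in gamma_OFF, and 9.42 and 8.84 in CTRL. Its gamma_ON arrays were the highest, and the other groups overlapped. LUM differed by 1.10 in gamma_ON against gamma_OFF (limma adjusted p = 0.026), and this was lost after quantile normalization (0.89, adjusted p = 0.058), after rescaling (0.80, adjusted p = 0.062), and without gamma_ON replicate 1, gamma_ON replicate 2 or gamma_OFF replicate 2 (0.104 to 0.194). The list's count in gamma_OFF against CTRL was 5 lower after quantile normalization and 3 lower after rescaling. It was 5 without gamma_OFF replicate 2, and 3 or 4 with the first or the second CTRL replicate left out. The list's count in gamma_ON against gamma_OFF was 3 higher after quantile normalization, 2 higher and 1 lower after rescaling, 0 on leaving out either gamma_ON array or gamma_OFF replicate 2, and 5 on leaving out either CTRL array.

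Markers of fibroblasts, the feeder cell type, were measured for 3 of 9 listed genes (THY1, LUM and DCN). Their summed signal, in log2, was 10.44 and 10.45 in gamma_ON, 9.73 and 9.51 in gamma_OFF, and 10.06 and 9.80 in CTRL. LUM had the highest values of the 3 on every array, so it weighs most in this sum, and it is in the mesenchymal list too. In gamma_ON against gamma_OFF all 3 were positive. LUM was called (1.10), and DCN (0.40, adjusted p = 0.0991) and THY1 (0.25, adjusted p = 0.211) were not, where limma called 5.99% of all genes. In gamma_ON against CTRL 0 of the 3 were called, with LUM at 0.86, DCN at 0.43 and THY1 at -0.22. THY1 stood at -0.47 (adjusted p = 0.0601) and DCN at 0.03 (adjusted p = 0.92) in gamma_OFF against CTRL, and limma called 0 of the 3 there, against 1 at an unadjusted p under 0.05. Collagen markers of fibroblasts such as COL1A1 and COL3A1 were not analysed here, and the part of feeder RNA in the mesenchymal values was not tested.

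**Figure D4:**
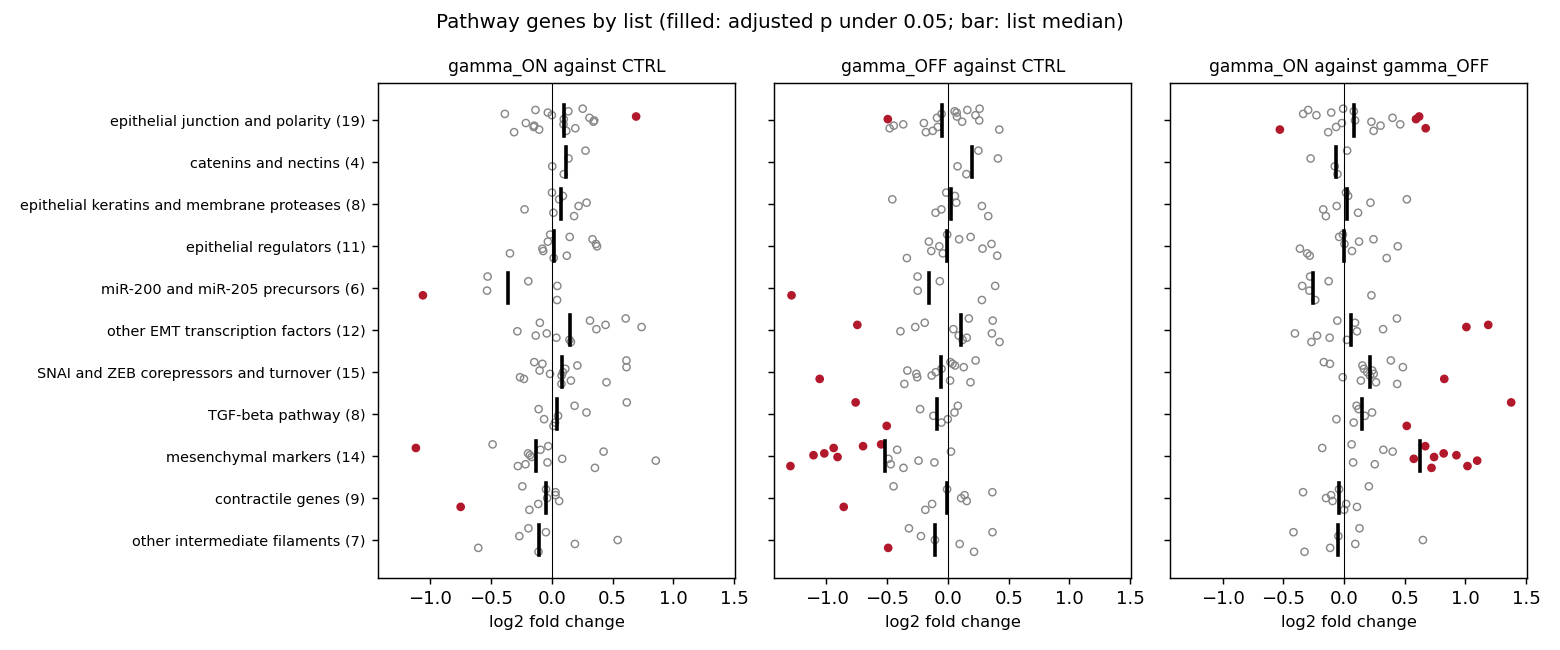
Log2 fold changes (horizontal axis) of the 113 measured pathway genes by list, with the number measured in brackets, in the 3 comparisons; bars are list medians and filled points have a limma adjusted p under 0.05. The mesenchymal list holds 7 filled points below 0 in gamma_OFF against CTRL and 8 above 0 in gamma_ON against gamma_OFF.

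CCN2 and TPM1 took the course of TAGLN, low with either H2A.X vector. CCN2, which encodes a matricellular growth factor modulator, had levels of 9.94 and 9.73 in gamma_ON, 10.05 and 9.98 in gamma_OFF, and 10.90 and 11.01 in CTRL. It fell by 1.12 in gamma_ON (limma adjusted p = 0.00371) and by 0.94 in gamma_OFF (adjusted p = 0.00663), each against CTRL. TPM1, an actin-binding tropomyosin gene of the contractile list, had levels of 8.81 and 8.71 in gamma_ON, 8.76 and 8.55 in gamma_OFF, and 9.49 and 9.54 in CTRL. All 4 arrays with H2A.X vectors lay below both CTRL arrays for both genes. TPM1 fell by 0.75 in gamma_ON (limma adjusted p = 0.0229) and by 0.86 in gamma_OFF (adjusted p = 0.00809). CCN2 lost its gamma_ON call without CTRL replicate 2 or gamma_ON replicate 2 (0.0568 to 0.0587), and its gamma_OFF call without CTRL replicate 2 (0.0557). TPM1 lost its gamma_ON call on leaving out either CTRL array or either gamma_ON array (0.125 to 0.21), and its gamma_OFF call on leaving out either CTRL array (0.0512 to 0.0645).

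Of the 14 contractile genes 9 were measured. TPM1 was the 1 called in each comparison with CTRL, with list medians of -0.05 in gamma_ON and -0.01 in gamma_OFF. Of all genes 1.55% and 8.85% were called in these comparisons, in that order, with medians of 0.021 and 0.015. Between gamma_ON and gamma_OFF limma called 0 of 9, against 1 at an unadjusted p under 0.05, with a median of -0.04. Smooth muscle markers were measured for 4 of 7 genes, and limma called 0 in any of the 3 comparisons, against 0 in gamma_ON and 1 in gamma_OFF against CTRL, and 1 between them, at an unadjusted p under 0.05. Their summed signal lay between 8.88 and 9.07 on the 6 arrays. LMOD1, a smooth muscle leiomodin gene, stood at 0.37 in gamma_OFF against CTRL (adjusted p = 0.0987).

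**Figure D5:**
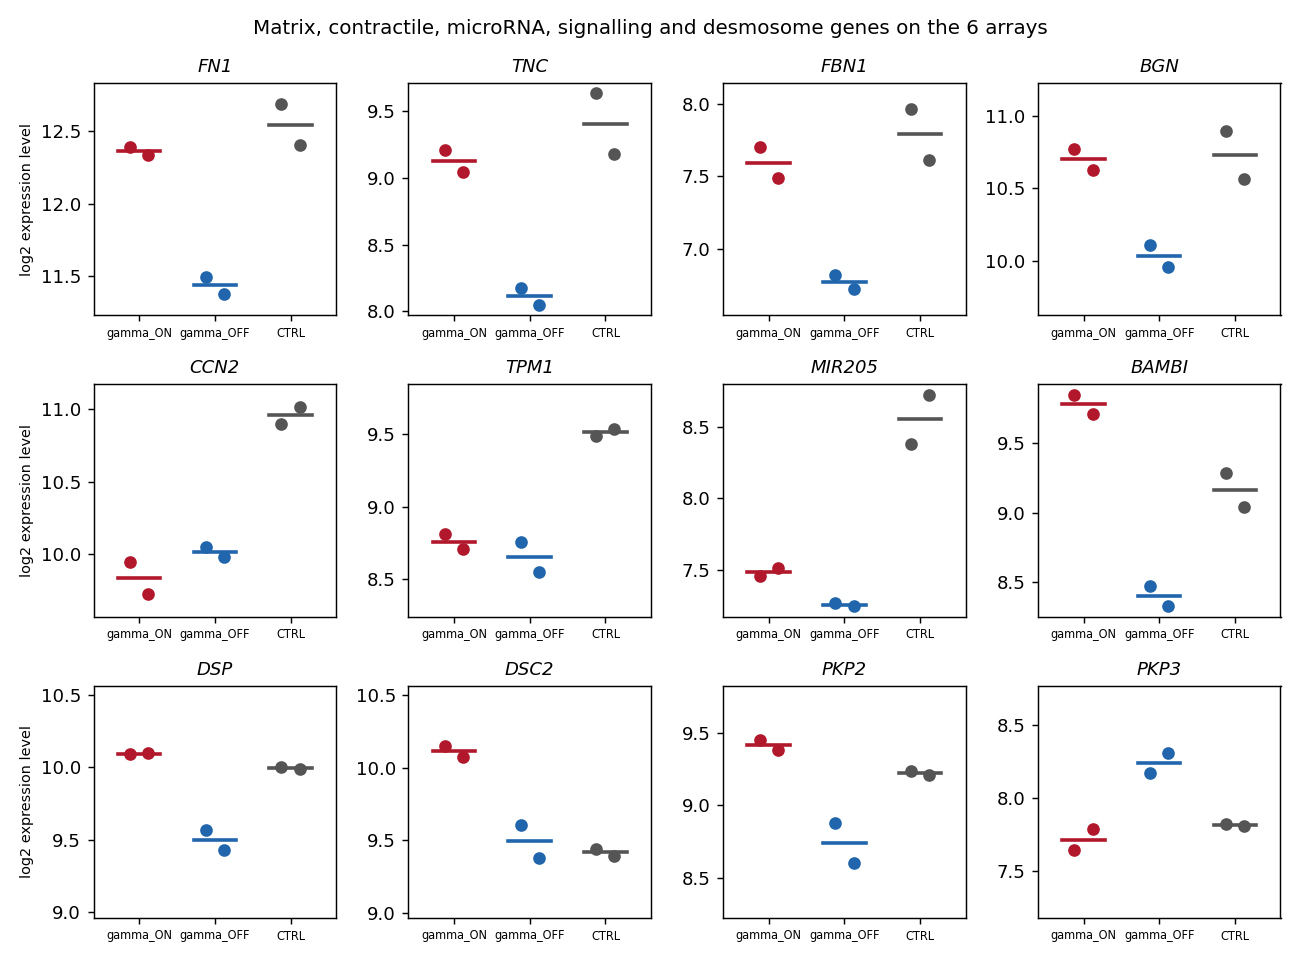
Log2 expression level (vertical axis) of 12 pathway genes on every array, by group (horizontal axis); points are arrays and bars are group means of 2. FN1, TNC, FBN1 and BGN are lowest in gamma_OFF, CCN2, TPM1 and MIR205 are highest in CTRL, and BAMBI is highest in gamma_ON.

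Of the 8 listed precursor genes of miR-200 and miR-205, 6 were measured. MIR205 had levels of 7.46 and 7.51 in gamma_ON, 7.27 and 7.25 in gamma_OFF, and 8.38 and 8.72 in CTRL. Both H2A.X groups lay about 1 log2 unit under CTRL. It fell by 1.06 in gamma_ON against CTRL (limma adjusted p = 0.00754) and by 1.29 in gamma_OFF against CTRL (adjusted p = 0.00372), and differed by 0.23 in gamma_ON against gamma_OFF (adjusted p = 0.267). The gamma_OFF call held whichever array was left out. The gamma_ON call was lost without CTRL replicate 2, gamma_ON replicate 1 or gamma_ON replicate 2 (0.0756 to 0.0925). The array reads RNA of the precursor's sequence, so the precursor and a longer host transcript cannot be told apart, and the mature miR-205 was not measured.

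Of the 5 precursors of the miR-200 family, limma called 0 in each of the 3 comparisons, against 2 in gamma_ON against CTRL, 1 in gamma_OFF against CTRL and 1 in gamma_ON against gamma_OFF at an unadjusted p under 0.05. MIR200B, of the AAUACUG seed group, had levels of 6.13 and 6.08 in gamma_ON, 6.49 and 6.40 in gamma_OFF, and 6.04 and 6.08 in CTRL. It stood at 0.39 in gamma_OFF against CTRL (95% interval 0.13 to 0.64, adjusted p = 0.0617) and at -0.34 in gamma_ON against gamma_OFF (adjusted p = 0.0851). MIR200C and MIR141, which share a cluster but not a seed, each stood at -0.53 in gamma_ON against CTRL, with adjusted p-values of 0.323 and 0.159. The miR-200 rows other than MIR200B had values of 4.11 to 5.22, under the lower quartile of all gene values on every array.

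Of 24 epithelial junction and polarity genes 19 were measured. In gamma_ON against gamma_OFF 3 desmosome genes were higher (DSP, DSC2 and PKP2), PKP3 was lower and 15 did not pass, with a median of 0.08. Of all genes 5.99% were called there, 3.98% higher and 2.02% lower, with a median of 0.024. Among the brighter 7442 genes alone, 20.1% were called, with a median of 0.17. DSP, the gene of the desmosomal plaque protein desmoplakin, had levels of 10.09 and 10.09 in gamma_ON, 9.57 and 9.43 in gamma_OFF, and 9.999 and 9.989 in CTRL. The gamma_OFF arrays alone were low. DSP fell by 0.49 in gamma_OFF against CTRL (limma adjusted p = 0.0356) and was the 1 junction gene called there, beside 8.85% of all genes. DSC2, which encodes the desmosomal cadherin desmocollin 2, had levels of 10.15 and 10.07 in gamma_ON, 9.60 and 9.38 in gamma_OFF, and 9.44 and 9.39 in CTRL. Here the gamma_ON arrays alone were high. DSC2 rose by 0.69 in gamma_ON against CTRL (limma adjusted p = 0.0304), the 1 pathway gene called higher there, beside 0.739% of all genes. PKP2 and PKP3, which encode plakophilins of the same plaque, stood at 0.67 and -0.53 in gamma_ON against gamma_OFF (adjusted p = 0.0303 and 0.0434), in opposite directions. DSP, DSC2 and PKP2 lost their calls in gamma_ON against gamma_OFF after quantile normalization (0.0667 to 0.0733) and after rescaling (0.0814 to 0.214). Each of the 4 also lost its call there on leaving out any single array other than gamma_OFF replicate 1, with adjusted p-values of 0.0612 to 0.295. DSP lost its gamma_OFF call after quantile normalization (0.0748), after rescaling (0.286) and on leaving out any single array other than gamma_OFF replicate 1 (0.0702 to 0.182). DSC2 lost its gamma_ON call after rescaling (0.0582) and on leaving out either CTRL or either gamma_ON array (0.158 to 0.273).

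The other epithelial lists gave 0 calls in each of the 3 comparisons, as 0 of 11 epithelial regulators, 0 of 8 keratins and membrane proteases and 0 of 4 catenins and nectins passed by limma. At an unadjusted p under 0.05 they gave 3, 0 and 0 in gamma_ON against CTRL, 3, 2 and 1 in gamma_OFF against CTRL, and 2, 1 and 0 in gamma_ON against gamma_OFF. GRHL3, a grainyhead factor gene of surface epithelium, stood at 0.44 in gamma_ON against gamma_OFF (adjusted p = 0.152). KRT18, a keratin gene of simple epithelia, stood at 0.52 there (adjusted p = 0.1), and NECTIN1, an adhesion molecule gene, at 0.41 in gamma_OFF against CTRL (adjusted p = 0.141). Their list medians lay between -0.07 and 0.20, beside 0.02 over all genes.

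Other transcription factors and cofactors of the transition gave few calls. Of 12 measured further factor genes of the transition, KLF8 and LEF1 were higher in gamma_ON than in gamma_OFF and KLF8 fell in gamma_OFF against CTRL. Of all genes 5.99% and 8.85% were called in these comparisons, in that order. KLF8, a Kruppel-like repressor gene, had levels of 7.51 and 7.37 in gamma_ON, 6.32 and 6.19 in gamma_OFF, and 7.15 and 6.84 in CTRL. It differed by 1.19 in gamma_ON against gamma_OFF (limma adjusted p = 0.00406) and fell by 0.75 in gamma_OFF against CTRL (adjusted p = 0.0187). LEF1, a nuclear partner gene of β-catenin, had gamma_OFF replicates far apart, at 6.12 and 6.73, and stood at 1.01 in gamma_ON against gamma_OFF (adjusted p = 0.0429). KLF8 lost the first call without gamma_ON replicate 1 (0.066) and the second without CTRL replicate 1, CTRL replicate 2 or gamma_OFF replicate 2 (0.0512 to 0.126). LEF1 lost its call after quantile normalization (0.0576) and on leaving out any gamma_ON or gamma_OFF array (0.0505 to 0.28).

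Of 15 measured corepressor and turnover genes RCOR1 alone was called, in gamma_OFF against CTRL and in gamma_ON against gamma_OFF. Of all genes 8.85% and 5.99% were called in these comparisons, in that order. RCOR1 encodes CoREST, a corepressor partner of the demethylase LSD1. Its levels were 8.99 and 9.05 in gamma_ON, 8.30 and 8.08 in gamma_OFF, and 9.21 and 9.29 in CTRL. The gamma_OFF arrays lay below all others. RCOR1 fell by 1.06 in gamma_OFF against CTRL (limma adjusted p = 0.00453), called whichever array was left out, and differed by 0.83 in gamma_ON against gamma_OFF (adjusted p = 0.0123). The second call was lost without gamma_ON replicate 1 or gamma_ON replicate 2 (0.0804 to 0.127).

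Of 8 measured TGF-beta pathway genes, BAMBI and SMAD7 fell in gamma_OFF against CTRL and were higher in gamma_ON than in gamma_OFF. They encode a decoy receptor and an inhibitory SMAD. Of all genes 8.85% and 5.99% were called in these comparisons, in that order. BAMBI had levels of 9.85 and 9.71 in gamma_ON, 8.47 and 8.33 in gamma_OFF, and 9.28 and 9.04 in CTRL. Its groups were ordered without overlap. BAMBI differed by 1.38 in gamma_ON against gamma_OFF (limma adjusted p = 0.0014), the 1 pathway gene called there whichever array was left out, and fell by 0.76 in gamma_OFF against CTRL (adjusted p = 0.0144). The second call was lost without CTRL replicate 1, CTRL replicate 2 or gamma_OFF replicate 2 (0.0534 to 0.108). SMAD7 fell by 0.50 in gamma_OFF against CTRL (adjusted p = 0.0402) and differed by 0.52 in gamma_ON against gamma_OFF (adjusted p = 0.0461). SMAD7 lost both calls on leaving out any single array other than gamma_OFF replicate 1 (0.0704 to 0.302), and the second after quantile normalization (0.0605) and rescaling (0.0541).

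Among 7 measured genes of other intermediate filaments NES alone was called, in gamma_OFF against CTRL, beside 8.85% of all genes. NES encodes nestin, a vimentin partner of neural progenitors, and had levels of 9.61 and 9.52 in gamma_ON, 9.55 and 9.80 in gamma_OFF, and 10.13 and 10.21 in CTRL. It fell by 0.49 in gamma_OFF against CTRL (limma adjusted p = 0.0471) and stood at -0.61 in gamma_ON against CTRL (adjusted p = 0.0567). The gamma_OFF call was lost after quantile normalization (0.135), after rescaling (0.445) and on leaving out any single array other than gamma_OFF replicate 2 (0.0632 to 0.243). The 15 other classical cadherins had 0 measured genes.

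Over the 113 measured pathway genes, without the 8 described first, 15 fell and 0 rose in gamma_OFF against CTRL, 16 were higher and 1 lower in gamma_ON against gamma_OFF, and 1 rose and 3 fell in gamma_ON against CTRL. Of all genes limma called 8.85%, 5.99% and 1.55% in these comparisons, in that order. Among the brighter 7442 genes fitted alone the shares were 17.3%, 20.1% and 4.18%. After rescaling, gamma_OFF against CTRL had 8 higher and 9 lower, and gamma_ON against gamma_OFF had 6 higher and 6 lower. After quantile normalization these were 2 higher and 11 lower, and 6 higher and 2 lower. Leaving out 1 array moved the count in gamma_OFF against CTRL to 5 and 6 without the first and the second CTRL replicate, 32 without gamma_OFF replicate 1 and 9 without gamma_OFF replicate 2. The share of all genes called moved there too, to 1.27% and 0.88% without the first and the second CTRL replicate, 23.6% without gamma_OFF replicate 1 and 2.61% without gamma_OFF replicate 2. Between gamma_ON and gamma_OFF it became 9 on leaving out either CTRL array, 1 and 2 without the first and the second gamma_ON replicate, 34 without gamma_OFF replicate 1 and 3 without gamma_OFF replicate 2. The share of all genes was 1.85%, 0.329% and 0.45%, 27.3% and 1.01% in the same order. In gamma_ON against CTRL it became 11 on leaving out either gamma_OFF array, 1 on leaving out gamma_ON replicate 1, and 0 on leaving out CTRL replicate 2 or gamma_ON replicate 2, with 3.27%, 0.255%, 0.255% and 0.228% of all genes called.

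Markers of other cell types that such cultures could hold moved with some groups. Beside the marker calls below, limma called 1.55% of all genes in gamma_ON against CTRL. It called 8.85% in gamma_OFF against CTRL and 5.99% in gamma_ON against gamma_OFF. Primitive streak markers, a stage at which the transition occurs in the embryo, had summed signals of 10.92 and 10.87 in gamma_ON, 10.03 and 10.22 in gamma_OFF, and 10.07 and 9.90 in CTRL. Of the 5 measured, MIXL1 and EOMES rose in gamma_ON against CTRL (1.95 and 1.18, limma adjusted p = 0.000866 and 0.00294), the second with 0.0522 without gamma_ON replicate 1. Both were also higher in gamma_ON than in gamma_OFF (1.46 and 1.64, limma adjusted p = 0.0041 and 0.000342), the first with 0.0622 without gamma_ON replicate 1. The other primitive streak markers, GSC, MESP1 and TBX6, were called in neither comparison. They stood at 0.31, -0.09 and 0.06 in gamma_ON against CTRL. In gamma_ON against gamma_OFF they stood at -0.055, -0.25 and -0.054, all negative, and the list median there was -0.054. Neuroectoderm markers had summed signals of 11.01 and 10.94 in gamma_ON, 11.08 and 10.98 in gamma_OFF, and 11.24 and 11.26 in CTRL. Of the 6 measured, NES, described above, and ZIC1 were called lower in gamma_OFF against CTRL and ZIC1 in gamma_ON against CTRL. ZIC1 stood at -0.64 in gamma_ON and -0.67 in gamma_OFF against CTRL (limma adjusted p = 0.0488 and 0.0201), and lost the first call on leaving out any single CTRL or gamma_ON array and the second on leaving out either CTRL array or gamma_OFF replicate 2 (0.0694 to 0.321). Neural crest markers lay between 10.72 and 10.84 on the 6 arrays, and of the 8 measured PAX3 fell by 0.66 in gamma_OFF against CTRL (limma adjusted p = 0.0189), a call lost on leaving out either CTRL array (0.069 to 0.136). Of 5 endoderm and 4 endothelial markers, GATA6 and KDR were higher in gamma_ON than in gamma_OFF (0.86 and 0.71, limma adjusted p = 0.0167 and 0.0189), and both were lost on leaving out either gamma_ON array, KDR also without gamma_OFF replicate 2 (0.0734 to 0.215). CXCR4, another endoderm marker, fell by 0.62 in gamma_ON against CTRL (limma adjusted p = 0.0398), a call lost on leaving out any single CTRL or gamma_ON array (0.189 to 0.288) and after rescaling (0.057). In gamma_OFF against CTRL GATA6 fell by 0.56 (limma adjusted p = 0.0433, and 0.0636 to 0.218 on leaving out any array but gamma_OFF replicate 2), and the endothelial PECAM1 rose by 0.71 (limma adjusted p = 0.044, and 0.0704 to 0.23 on leaving out any array but gamma_OFF replicate 1). Both calls were lost after quantile normalization (0.113 and 0.0773) and after rescaling (0.119 and 0.0587). In gamma_ON against gamma_OFF 4 endoderm changes were positive and 1 negative (CXCR4, -0.30), with a median of 0.14. Endothelial changes there were 2 positive and 2 negative (PECAM1, -0.28, and VWF, -0.21), with a median of -0.09. In gamma_ON against CTRL, CXCR4 was the 1 negative of 5 endoderm changes. In gamma_OFF against CTRL, 3 endothelial changes were positive and 1 negative (KDR, -0.27). Among pluripotent cell markers POU5F1 rose in gamma_ON against CTRL by 0.71 (limma adjusted p = 0.0441, and 0.113 to 0.283 on leaving out any single CTRL or gamma_ON array), and DNMT3B rose in gamma_OFF against CTRL by 0.46 (limma adjusted p = 0.0489, and 0.085 to 0.211 on leaving out any array but gamma_OFF replicate 1). After quantile normalization POU5F1 (0.081), ZIC1 in gamma_ON against CTRL (0.0736) and GATA6 in gamma_ON against gamma_OFF (0.055) were not called, and after rescaling POU5F1 (0.0912), ZIC1 in gamma_ON (0.0896) and KDR (0.0697). The part of such cells in the values of the mesenchymal genes was not tested.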

How the data were processed

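Total RNA of 6 H9 samples, 3 groups of 2 by the sample descriptions, was hybridised to 1-colour expression arrays. The authors deposited 1 log2 level per row and array. Per the submitters' processing notes RMA and Partek 6.6 were used, with options, build and annotation not given in the sources used here. Array medians of 6.11 to 6.25 fit a log2 unit. Raw scanner values were not used here, and precision is limited by how few arrays there are.

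Of 53617 rows, 16098 had 1 gene symbol in the platform's probe table, 0 had several and 37519 were unnamed here. All 16098 identifiers matched RefSeq (GRCh38.p14). The brightest row was kept for the 779 genes with several, leaving 14884 genes. limma 3.58.1 in R 4.3.3 (lmFit, eBayes) fitted all 6 arrays, with 3 residual and 6.05 prior degrees of freedom. Contrasts were two-sided, adjusted by Benjamini-Hochberg over all genes, with calls at an adjusted p under 0.05. With 2 arrays a group an exact permutation test reaches p = 0.333 at best.

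The genes and the 12 pathway lists were chosen with earlier results of these data known. Named from each list were up to 2 called genes of largest change per comparison, or 1 gene where none was called; genes beside a count, THY1, DCN and the miR-200 precursors were named after their values were seen. Rescaling centred each array on its median and set 1 interquartile range. On simulated data with the design of gamma_ON against CTRL (14884 genes) the script recovered 100% of the 100 genes shifted by 1 log2 unit and 100% of the 100 shifted by 2, with 10 false calls among 210. The simulated noise was normal, independent and alike on all arrays. Fitted array weights were 0.544 for the gamma_OFF arrays and 1.24 to 1.48 for the others, so recovery on arrays this uneven was not measured.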

Additional observations from a re-analysis of the deposited data

How the results depend on the processing

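Alternatives changed the spread model, array weights, the arrays fitted, a filter on dim genes, normalization, scaling, the row kept, the rows tested, the threshold and the arrays included. Over them, 308 of the log2 fold changes of the 8 genes kept their direction and side of the threshold, 35 lost a call, 2 gained one and 9 turned sign. Causes of these changes were not tested.

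Of the 8 state genes, the count called in gamma_ON against CTRL was 1, and 0 with all rows of the table tested. In gamma_OFF against CTRL it was 4, and 2 with all rows tested or with only those groups fitted. In gamma_ON against gamma_OFF it was 2, 1 with array weights or quantile normalization and 0 with all rows tested. After rescaling the genes called there changed: SNAI2 stayed called (limma adjusted p = 0.043), VIM was lost (0.0875) and EPCAM was called lower. Leaving out 1 array gave 0 to 1, 0 to 4 and 0 to 2. Of the pathway genes, 4 were called in gamma_ON against CTRL, 12 with array weights, 0 with all rows tested, and 11 with a trended robust spread, only those groups, dim genes left out or a threshold of 0.10. In gamma_OFF against CTRL 15 were called, 7 with all rows tested and 27 at 0.10. In gamma_ON against gamma_OFF 17 were called, 6 with array weights, 9 with only those groups, 8 after quantile normalization, 1 with all rows tested and 27 at 0.10. Leaving out 1 array gave 0 to 11, 5 to 32 and 1 to 34.

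Signs turned for SNAI1 in gamma_ON against gamma_OFF after quantile normalization (-0.10) and rescaling (-0.077), and for EPCAM in gamma_OFF against CTRL after both (0.10 and 0.42). With 1 array left out, SNAI2 in gamma_ON against CTRL ranged over -0.29 to 0.17, ZEB1 in gamma_OFF against CTRL over -0.485 to 0.077, TWIST1 in gamma_ON against CTRL over -0.145 to 0.274, and EPCAM in gamma_OFF against CTRL over -0.06 to 0.028. With the replicate number as a block, 1, 4 and 2 state genes and 6, 13 and 16 pathway genes were called in gamma_ON against CTRL, gamma_OFF against CTRL and gamma_ON against gamma_OFF; deviations of same-numbered arrays correlated at -0.096, -0.073 and 0.088, so the numbers were not taken as pairs. With 2 arrays a group, small changes could go uncalled, and a 95% interval clear of 0 did not ensure a call. ZEB2 in gamma_ON against gamma_OFF (0.11 to 0.75, limma adjusted p = 0.0858) was 1 such case.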
